A study of Mus musculus with 12 samples.

Results

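Lysine acetyltransferases move an acetyl group from acetyl-CoA to lysines of histones and other proteins, and the genes described here are CBP (Crebbp) and the other nuclear acetyltransferases of its kind in mouse embryonic fibroblasts (MEFs) whose CBP and p300 genes had been deleted. The set was a list of 10 gene symbols, Crebbp, Kat2a, Kat2b, Kat5, Kat6a, Kat6b, Kat7, Kat8, Ncoa1 and Ncoa3, and the rule sets no threshold on a measured value. Every probe set annotated with exactly 1 symbol was taken, which gave 17 probe sets for 9 of the 10 genes, out of 28898 probe sets for 17097 genes in all. Kat5 and the p300 gene were not analysed here.

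The study hybridized RNA from 12 cultures of primary MEFs to Affymetrix 3' expression arrays, 1 array per culture and 3 per group, to compare 2 genotypes with and without dipyridyl (DP), an iron chelator that inhibits iron-dependent dioxygenases and thereby stabilizes hypoxia-inducible factors. The groups were CBP/p300 null (dKO) cells given 100 µM DP for 3 h, dKO cells given ethanol vehicle for 3 h, wild-type (WT) cells given DP, and WT cells given ethanol. The dKO cells carried conditional alleles of both genes in homozygous form, and both genotypes received Cre adenovirus, so WT cells are controls for the virus and for Cre. All MEFs came from embryos of C57Bl/6 x 129Sv (F1) mice at stage e14.5. At passage 4 they were plated in 3% oxygen with the virus (MOI of 100), which was removed after 16 h, and were kept at 3% oxygen for 48 h and in normoxia for 24 h before treatment. Each line, numbered 1, 5 and 6 in dKO and 3, 4 and 5 in WT, gave both a DP and an ethanol culture; the number 5 in both genotypes does not mark a shared embryo. The genes were deleted in culture, after isolation of the cells. The sources used here do not give the deleted exons, the exact site of the probes on Crebbp or the share of cells that recombined.

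CBP and p300 are closely related coactivators that many transcription factors recruit to promoters and enhancers. GCN5 (Kat2a) and PCAF (Kat2b), which are paralogs, work in the SAGA and ATAC complexes and acetylate mainly histone H3. The MYST family holds MOZ (Kat6a) and MORF (Kat6b), which work with BRPF scaffold proteins, HBO1 (Kat7), a histone H3 and H4 acetyltransferase, MOF (Kat8), which acetylates histone H4, and TIP60 (Kat5). The p160 coactivators SRC-1 (Ncoa1) and SRC-3 (Ncoa3) bind ligand-bound nuclear receptors, recruit CBP and p300, and have been described as having weak acetyltransferase activity of their own.

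Promoter windows are shown for Crebbp, which was deleted, and for Kat2b and Ncoa1, which had the largest rises among the members. Each runs from 250 bases before to 50 bases after a RefSeq transcript start of GRCm38.p6 and is written 5′ to 3′ on the gene's strand; RefSeq had 12 such windows for 8 of the 10 genes. Capitals mark the core of the cAMP response element, TGACG or its reverse complement CGTCA, the motif through which CREB recruits CBP. The full element TGACGTCA, which contains the core, and the hypoxia response core ACGTG or CACGT, which can overlap it, were searched on both strands too.
Kat2b, chr17:53566721-53567020, plus strand: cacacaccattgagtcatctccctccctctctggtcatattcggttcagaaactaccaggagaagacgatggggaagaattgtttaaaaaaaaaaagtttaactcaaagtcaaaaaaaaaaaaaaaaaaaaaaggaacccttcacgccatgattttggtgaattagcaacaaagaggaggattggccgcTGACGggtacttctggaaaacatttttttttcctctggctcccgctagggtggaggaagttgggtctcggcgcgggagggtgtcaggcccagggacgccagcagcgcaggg
Ncoa1, chr12:4477133-4477432, minus strand: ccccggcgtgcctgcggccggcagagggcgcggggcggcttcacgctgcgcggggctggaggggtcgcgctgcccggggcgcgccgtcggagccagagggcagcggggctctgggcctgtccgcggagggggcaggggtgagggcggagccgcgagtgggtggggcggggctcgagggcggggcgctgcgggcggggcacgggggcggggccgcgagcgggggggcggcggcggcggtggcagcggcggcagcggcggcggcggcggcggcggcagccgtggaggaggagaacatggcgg
Crebbp, chr16:4213355-4213654, minus strand: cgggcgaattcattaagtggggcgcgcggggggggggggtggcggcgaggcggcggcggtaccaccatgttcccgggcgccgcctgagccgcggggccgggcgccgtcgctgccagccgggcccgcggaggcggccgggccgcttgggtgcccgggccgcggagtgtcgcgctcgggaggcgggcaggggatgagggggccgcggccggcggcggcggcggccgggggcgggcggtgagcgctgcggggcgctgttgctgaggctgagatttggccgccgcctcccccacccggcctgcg
The Kat2b window shown held 1 cAMP response core, no hypoxia core and 11 CpG dinucleotides. A second RefSeq window of Kat2b, chr17:53583876-53584175, held no cAMP response core, 1 hypoxia core and 6 CpG. The Ncoa1 and Crebbp windows held none of the 3 motifs and 49 CpG each. Of all 32851 RefSeq mouse windows of this kind, 20.8% held the cAMP response core, 1.79% the full element and 19.6% the hypoxia core, and the median window held 7 CpG. A match is a description of these letters and says nothing about which factor was bound.

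Genotype moved much of the transcriptome. In ethanol 29.6% of all probe sets were called, meaning an adjusted p under 0.05 in limma, 4919 higher and 3638 lower in dKO; cyclic loess normalization turned that split to 3717 higher and 4401 lower. In DP 31.9% were called. Of 23 probe sets for fibroblast markers, 22 were lower in dKO in each treatment; Dcn (decorin) fell by 3.73 ± 0.29 log2 (SE) in ethanol and 3.63 ± 0.29 log2 in DP, and 13 of the 14 marker genes stayed above the control level in dKO cells. In bulk RNA, fewer cells of a type and less RNA per cell cannot be told apart. Xist was 3.94 to 5.32 log2 in dKO and 10.3 to 10.6 log2 in WT in ethanol at its brightest probe set, and Eif2s3y, on the Y chromosome, was 7.08 to 8.35 log2 in dKO and 2.49 to 3.06 log2 in WT, so genotype and sex-linked expression cannot be told apart. The 3' minus 5' difference of the beta-actin controls, a measure of RNA integrity and labelling, was 0.40 to 0.45 log2 in dKO and 0.23 to 0.25 log2 in WT in ethanol, and 0.48 to 0.60 log2 in dKO and 0.28 to 0.38 log2 in WT in DP; its part in the results was not tested beyond a fit with it as a covariate. Since it was larger on every dKO array than on every WT array, that fit can hardly separate it from genotype, and calls lost in it decide little. The ethanol arrays of dKO line 1 and WT line 5 stood apart from their groups, and their deviations correlated at 0.85.

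In dKO cells, Kat2b and Ncoa1 were the members that were higher by at least 1 log2 unit, Kat6a rose less, and Crebbp fell, in both treatments. Ncoa3 rose at 1 of its 2 probe sets in both treatments and fell at the other in DP. Kat2a, Kat7 and Kat8 did not pass the test in either treatment, and Kat6b lay at the level of the tag control probe sets everywhere. Of the 17 probe sets, 7 were called in ethanol, 6 higher and 1 lower, from 5 of the 9 genes, where 29.6% of all probe sets were called, 17.0% higher and 12.6% lower. In DP 8 were called, 6 higher and 2 lower, from 5 genes, against 31.9% of all probe sets, 16.7% higher and 15.3% lower. Calls were thus common among all genes. They were more common still without the dimmest 40% of probe sets, where 8263 of 17339 were called in ethanol and 8654 in DP. The 17 were not filtered in this way, and an excess over probe sets of like brightness was not tested. By size, 3 of the 17 probe sets were called and higher by at least 1 log2 unit in each treatment, against 3.55% of all probe sets in ethanol and 3.91% in DP. The groups did not overlap for 9 of the 17 in ethanol and 9 in DP, where 37.3% and 50.7% of all probe sets did not overlap. The median difference over the 17 was 0.23 log2 in ethanol and 0.18 log2 in DP, where that of all probe sets was -0.001 and -0.003 log2.

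**Figure D1:**
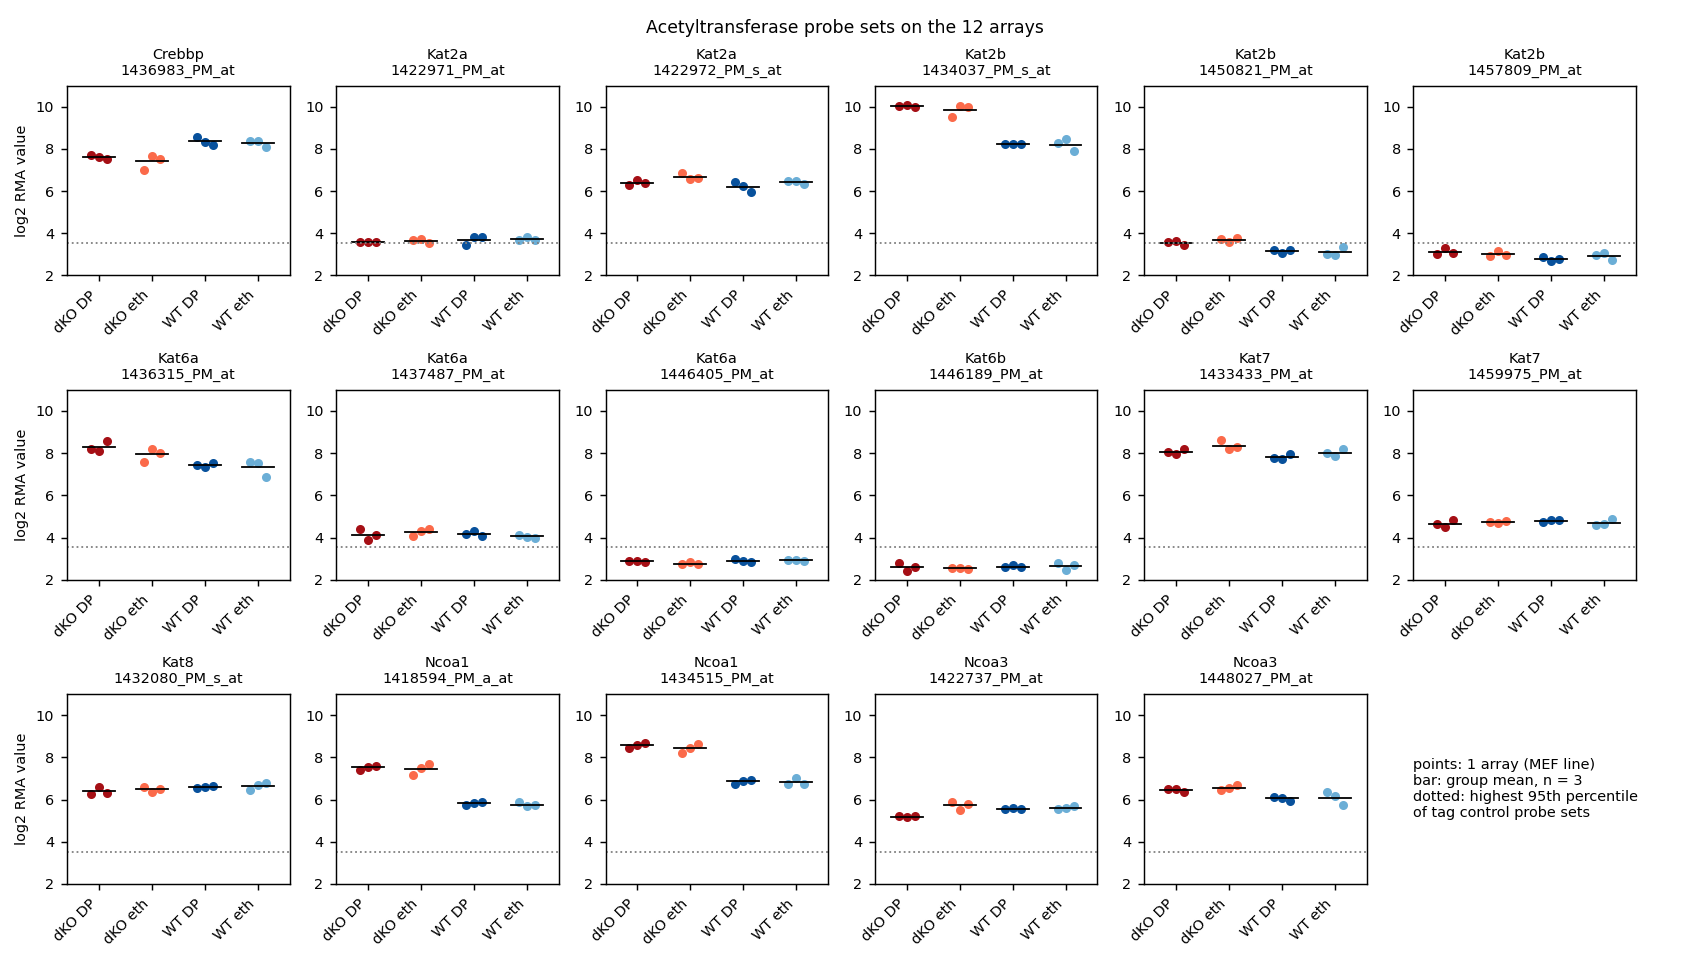
Deposited log2 RMA values of the 17 probe sets, one panel each, with the dKO DP, dKO ethanol, WT DP and WT ethanol arrays from left to right (points, n = 3 per group; bars, group means). The dotted line is the highest 95th percentile of the tag controls over the arrays (3.54 log2); the dKO arrays lie apart from and above the WT arrays for Kat2b 1434037_PM_s_at and both Ncoa1 probe sets, and below them for Crebbp.

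Crebbp (chr16:4081334-4213957, GRCm38.p6), which the dKO design targets, was measured by 1 probe set, 1436983_PM_at. It read 7.02, 7.68 and 7.54 log2 in dKO lines 1, 5 and 6 in ethanol, against 8.35, 8.37 and 8.07 log2 in WT lines 3, 4 and 5. In DP it read 7.69, 7.62 and 7.51 log2 in the dKO lines and 8.54, 8.35 and 8.21 log2 in the WT lines. All dKO arrays lay under all WT arrays, but the signal did not fall to the control level. Crebbp fell by 0.85 ± 0.16 log2 in ethanol (SE, 3 lines per genotype; 95% interval -1.20 to -0.50; adjusted p = 0.00121), which is 1.80-fold lower in dKO. In DP it fell by 0.76 ± 0.16 log2 (95% interval -1.11 to -0.42; adjusted p = 0.0026), or 1.70-fold. Which RNA the probe set reads in dKO cells was not tested.

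Kat2b (chr17:53566774-53672721), the acetyltransferase that binds CBP and p300 and works in SAGA and ATAC, rose at its bright probe set. Its bright probe set 1434037_PM_s_at read 9.53, 10.05 and 9.99 log2 in dKO lines 1, 5 and 6 in ethanol, against 8.27, 8.46 and 7.90 log2 in WT lines 3, 4 and 5. In DP it read 10.01, 10.06 and 10.00 log2 in the dKO lines and 8.21, 8.23 and 8.26 log2 in the WT lines. Every dKO array lay more than 1 log2 unit above every WT array, and in DP the 3 dKO lines were nearly alike. The rise in dKO was 1.65 ± 0.15 log2 in ethanol (3.13-fold, 95% interval 2.48 to 3.94; adjusted p = 4.89e-06) and 1.79 ± 0.15 log2 in DP (3.46-fold, interval 2.75 to 4.36; adjusted p = 2.26e-06). The suffix of this probe set marks probes that may match more than 1 transcript, which was not tested.

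The other Kat2b probe sets were dim. The probe set 1450821_PM_at read 3.71, 3.58 and 3.76 log2 in dKO lines in ethanol, above its WT arrays, which lay at the level of the tag controls (95th percentile per array 3.28 to 3.54 log2). As deposited, the probe set was higher in dKO by 0.56 ± 0.11 log2 in ethanol (adjusted p = 0.00175) and 0.38 ± 0.11 log2 in DP (adjusted p = 0.0183). These sizes use WT values at the control level, so only a bound can be given. Measured from the highest of these percentiles, 3.54 log2, the bound was 1.11-fold in ethanol and 1.01-fold in DP, and it was not tested. The DP call was lost without the DP array of WT line 4 (0.34 log2), dKO line 1 (0.37 log2) or dKO line 5 (0.34 log2). The third, 1457809_PM_at, lay at the control level in all 4 groups and gave 0.10 ± 0.12 log2 in ethanol (adjusted p = 0.601) and 0.34 ± 0.12 log2 in DP (adjusted p = 0.054). The probe sets of Kat2b thus differed in size, and the statement on a large rise rests on 1434037_PM_s_at.

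Ncoa1 (chr12:4247362-4477206), which encodes SRC-1, was read by a pair of probe sets that gave like differences. The first, 1434515_PM_at, read 8.20, 8.47 and 8.65 log2 in dKO lines 1, 5 and 6 in ethanol, against 6.74, 7.02 and 6.74 log2 in WT lines. In DP it read 8.44, 8.58 and 8.69 log2 in dKO lines and 6.75, 6.89 and 6.94 log2 in WT lines. No dKO array came within 1 log2 unit of a WT array. It rose by 1.61 ± 0.13 log2 in ethanol (3.04-fold, 95% interval 2.50 to 3.70; adjusted p = 1.64e-06) and by 1.71 ± 0.13 log2 in DP (3.27-fold, interval 2.69 to 3.98; adjusted p = 9.21e-07).

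The second Ncoa1 probe set, 1418594_PM_a_at, read 7.18, 7.51 and 7.70 log2 in dKO lines in ethanol and 5.87, 5.69 and 5.73 log2 in WT lines. In DP its values were 7.41, 7.54 and 7.61 log2 in dKO lines and 5.76, 5.82 and 5.87 log2 in WT lines. The groups were as far apart as for the first. The rise was 1.70 ± 0.12 log2 in ethanol (adjusted p = 8.03e-07) and 1.70 ± 0.12 log2 in DP (adjusted p = 6.88e-07).

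Ncoa3 (chr2:165992637-166073242), which encodes SRC-3, gave opposite readings from its 2 probe sets. The probe set 1448027_PM_at read 6.47, 6.54 and 6.69 log2 in dKO lines in ethanol, against 6.37, 6.18 and 5.74 log2 in WT lines, and rose by 0.47 ± 0.14 log2 (adjusted p = 0.0245). In DP it read 6.51, 6.50 and 6.34 log2 in dKO lines and 6.12, 6.09 and 5.95 log2 in WT lines, a rise of 0.40 ± 0.14 log2 that lay just within the threshold (adjusted p = 0.0495). The dKO arrays were above the WT arrays in both treatments. The ethanol call was lost without the WT line 5 array (0.29 log2) or dKO line 6 (0.41 log2), and the DP call without any 1 of the 6 DP arrays (0.35 to 0.45 log2, adjusted p 0.0623 to 0.153), or without the ethanol array of dKO line 5, dKO line 6 or WT line 4. Cyclic loess also ended both calls (0.27 log2, adjusted p = 0.196 in ethanol; 0.25 log2, adjusted p = 0.224 in DP). The probe set 1422737_PM_at read 5.20, 5.17 and 5.21 log2 in dKO lines in DP, under all of the WT values of 5.53, 5.59 and 5.56 log2, and fell by 0.37 ± 0.10 log2 (adjusted p = 0.0142). This call was lost with an intensity trend (-0.37 log2, adjusted p = 0.0522) and with median centring (-0.34 log2, adjusted p = 0.0532). The beta-actin covariate ended it too (-0.33 log2, adjusted p = 0.565). In ethanol the same probe set read 5.88, 5.52 and 5.79 log2 in dKO lines and 5.54, 5.61 and 5.69 log2 in WT lines, and the groups overlapped (0.11 ± 0.10 log2, adjusted p = 0.470). The direction of Ncoa3 in DP therefore depends on which probe set is read, and with the mean of its probe sets in place of either the difference was 0.016 log2 (adjusted p = 0.91).

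Among the MYST enzymes, Kat6a (chr8:22859442-22943259) rose at its bright probe set. The probe set 1436315_PM_at read 7.60, 8.20 and 8.03 log2 in dKO lines in ethanol, against 7.59, 7.53 and 6.86 log2 in WT lines; dKO line 1 and WT line 3 were almost level. In DP it read 8.19, 8.10 and 8.55 log2 in dKO lines and 7.43, 7.35 and 7.53 log2 in WT lines, with a clear gap. The rise was 0.62 ± 0.20 log2 in ethanol (adjusted p = 0.0341) and 0.85 ± 0.20 log2 in DP (1.80-fold, 95% interval 1.33 to 2.43; adjusted p = 0.00592). In ethanol this call was lost without the WT line 5 array (0.39 log2), without dKO line 5 (0.49 log2) and without dKO line 6 (0.58 log2), but it held without both arrays that stood apart (0.56 log2, adjusted p = 0.0107). Cyclic loess ended the ethanol call too (0.44 log2, adjusted p = 0.143). With the beta-actin difference as covariate the Kat6a difference was 0.10 ± 0.42 log2 in ethanol and 0.30 ± 0.43 log2 in DP, and neither passed. The estimate itself was smaller than without the covariate in both treatments, and the SE was larger. That covariate follows genotype, so this fit cannot decide on Kat6a. The other Kat6a probe sets did not pass: 1437487_PM_at gave 0.23 and -0.05 log2 in ethanol and DP, and 1446405_PM_at lay at the control level.

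Kat7 (chr11:95271853-95310246) read 8.60, 8.18 and 8.31 log2 in dKO lines in ethanol, against 8.01, 7.87 and 8.19 log2 in WT lines, at its bright probe set 1433433_PM_at. The groups overlapped by a small margin, and the difference of 0.34 ± 0.13 log2 missed the threshold (95% interval 0.06 to 0.62; adjusted p = 0.0682). Without the WT line 5 array it was 0.42 log2 (adjusted p = 0.038), and without dKO line 5 it was 0.43 log2 (adjusted p = 0.037). In DP the difference was 0.26 log2 (interval -0.02 to 0.54; adjusted p = 0.153). Its second probe set, 1459975_PM_at, differed by 0.03 log2 in ethanol and -0.13 log2 in DP.

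Kat8 (chr7:127912517-127925838) and Kat2a (chr11:100704746-100712485) gave small differences that did not pass. Kat8 read 6.59, 6.37 and 6.48 log2 in dKO lines in ethanol and 6.44, 6.68 and 6.76 log2 in WT lines, a difference of -0.15 log2 (interval -0.40 to 0.10) with overlapping groups; in DP it was -0.22 log2 (interval -0.47 to 0.04). Under cyclic loess the Kat8 difference passed, at -0.35 log2 in ethanol (adjusted p = 0.0307) and -0.37 log2 in DP (adjusted p = 0.0208). Kat2a, the paralog of Kat2b, read 6.85, 6.56 and 6.62 log2 in dKO lines in ethanol, against 6.49, 6.48 and 6.34 log2 in WT lines, at 1422972_PM_s_at. That is a difference of 0.24 log2 (interval -0.04 to 0.52; adjusted p = 0.202), so a rise of the size seen for Kat2b lies outside the interval. Kat2a's other probe set, 1422971_PM_at, differed by -0.08 log2 in ethanol and -0.10 log2 in DP. Kat6b (chr14:21499216-21672478) had 1 probe set, at 2.50 to 2.56 log2 in dKO and 2.46 to 2.77 log2 in WT in ethanol, all at the level of the tag controls, so no difference could be read from it.

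**Figure D2:**
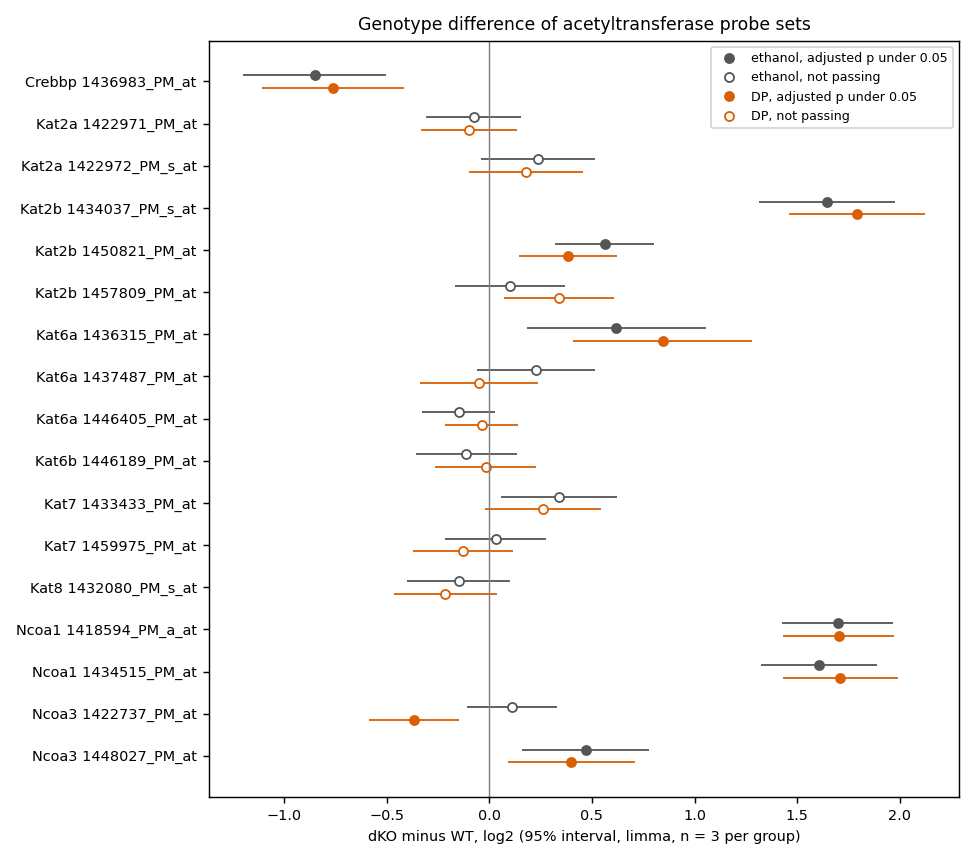
Difference dKO minus WT (log2) of each of the 17 probe sets in ethanol (grey) and in DP (orange), with 95% intervals from limma; filled points passed an adjusted p of 0.05. The bright Kat2b probe set and both Ncoa1 probe sets lie between 1.61 and 1.79 log2 in both treatments, and Crebbp lies at -0.85 and -0.76 log2.

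Few of these transcripts passed the test for DP against ethanol. In dKO cells 1 of the 17 probe sets was called, where 1.14% of all probe sets were. In WT cells limma called none of the 17 and none had an unadjusted p under 0.05, where 3.71% of all probe sets were called. The call in dKO cells was Ncoa3 1422737_PM_at, which read 5.20, 5.17 and 5.21 log2 in lines 1, 5 and 6 in DP and 5.88, 5.52 and 5.79 log2 in the same lines in ethanol. It fell in each of the 3 lines, by 0.53 ± 0.10 log2 on average (95% interval -0.75 to -0.31; adjusted p = 0.0214). With the line as a block the adjusted p was 0.0532. The call was also lost without the ethanol array of dKO line 1 (-0.46 log2, adjusted p = 0.0822) or line 6 (-0.50 log2), and without the DP array of line 1, 5 or 6 (-0.54, -0.52 and -0.54 log2). In WT lines the same probe set changed by -0.06 ± 0.10 log2 (adjusted p = 0.878). The DP effect in dKO cells minus that in WT cells was -0.48 ± 0.14 log2 with an unadjusted p of 0.0056 and an adjusted p of 0.412, so a difference between the genotypes in this response was not shown. Over the 17 probe sets, limma called none for that difference and 1 had an unadjusted p under 0.05, where 0.401% of all probe sets were called.

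Crebbp itself did not pass in DP: it changed by 0.19 ± 0.16 log2 in dKO cells (adjusted p = 0.627) and by 0.10 ± 0.16 log2 in WT cells (adjusted p = 0.854). The dKO mean rests on line 1, which changed by 0.67 log2 against -0.06 and -0.04 log2 in lines 5 and 6, and the ethanol array of line 1 is among those that stood apart. Ncoa1 1434515_PM_at changed by 0.25, 0.11 and 0.05 log2 with DP in dKO lines 1, 5 and 6 and by 0.02, -0.13 and 0.20 log2 in WT lines 3, 4 and 5. These changes are small beside the difference of 1.61 log2 between the genotypes in ethanol.

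**Figure D3:**
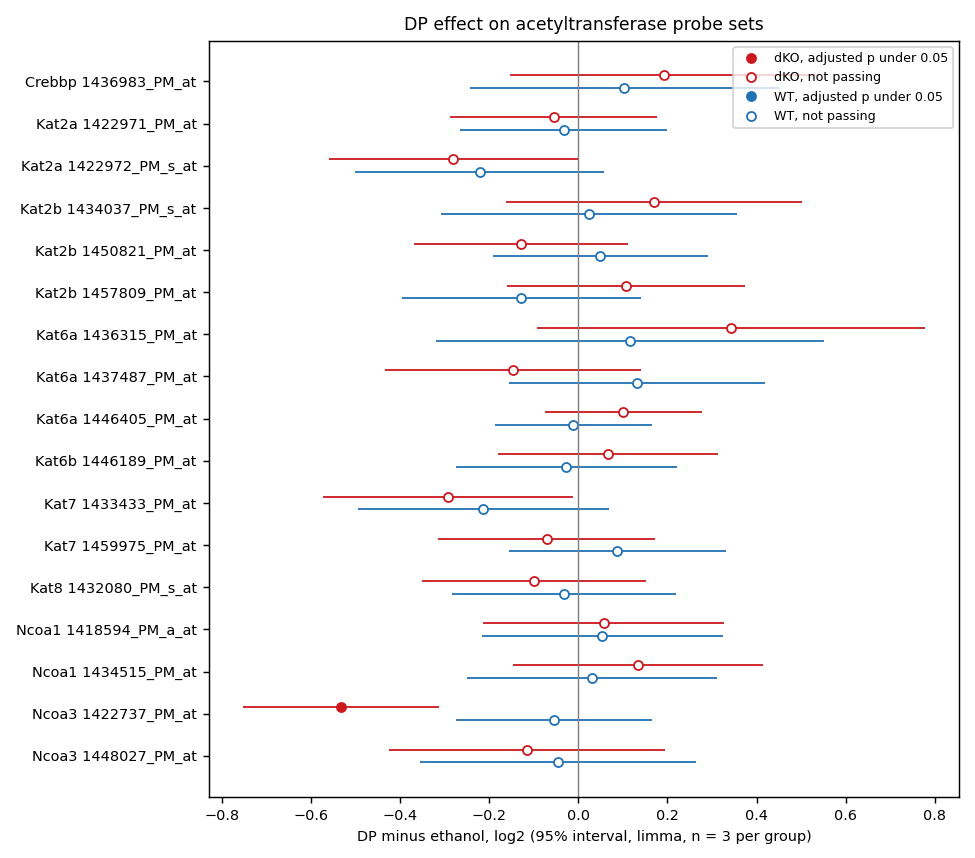
Difference DP minus ethanol (log2) of each of the 17 probe sets in dKO (red) and WT (blue) MEFs, with 95% intervals from limma; filled points passed an adjusted p of 0.05. Only Ncoa3 1422737_PM_at in dKO, at -0.53 log2, is filled.

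The 5 genes whose values over the 12 arrays were most like those of Crebbp were Tsc22d2, Enah, Tceal8, Nap1l1 and Ap1s2, among 8917 genes whose mean over the arrays reached 5 log2. Likeness was the root mean square difference of mean-centred log2 values, 0.0964 for Tsc22d2 and 0.111 for Ap1s2. Tceal8 and Ap1s2 lie on the X chromosome, and the genotypes also differed in sex-linked expression, whose part in this likeness was not tested. Since Crebbp differs by genotype, genes lower by a like amount in dKO are picked by this measure; Enah, which encodes an actin regulator, fell by 0.86 ± 0.15 log2 in ethanol and by 0.80 ± 0.15 log2 in DP.

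Partners of the member enzymes were read from lists of complex subunits. Of 116 probe sets for 54 measured genes in 4 complexes, 42 were higher and 8 lower in dKO in ethanol, and 44 higher and 8 lower in DP, so 43.1% and 44.8% were called, against 29.6% and 31.9% of all probe sets. All probe sets include many dim ones. Without the dimmest 40%, 8263 of 17339 probe sets were called in ethanol and 8654 in DP. The 116 were not filtered in this way, so these shares cannot be set side by side. An excess of calls over probe sets of like brightness was not tested. The median differences over the 116 were 0.20 log2 in both treatments. These medians depended on the normalization. In ethanol, cyclic loess gave 0.0026 log2 for SAGA and ATAC and 0.02 log2 for MOZ, MORF and HBO1, against 0.12 and 0.14 log2 as deposited. It gave 0.25 log2 for TIP60 and 0.20 log2 for MSL and NSL, against 0.38 and 0.32 log2. In DP it gave 0.02, 0.05, 0.24 and 0.17 log2 in the same order, against 0.17, 0.04, 0.34 and 0.25 log2. All 7 lists together, with other acetyltransferases, coactivators and acetyl-CoA supply, held 182 probe sets of 85 genes, of which 55 were higher and 11 lower in ethanol and 60 higher and 14 lower in DP. The shares called were 36.3% and 40.7%, against 29.6% and 31.9% of all probe sets. In a fit that took the beta-actin difference as covariate, each of the 7 lists had at most 3 calls in dKO against WT, while the ethanol medians of TIP60, MSL and NSL, and SAGA and ATAC were 0.31, 0.34 and 0.14 log2, against 0.38, 0.32 and 0.12 log2 without it; 1385 probe sets were then called over the whole array in ethanol.

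For SAGA and ATAC, the complexes of Kat2a and Kat2b, 11 of 44 probe sets were higher and 2 lower in ethanol, and 12 higher and 2 lower in DP. The shares called, 29.5% and 31.8%, were those of all probe sets, 29.6% and 31.9%. Atxn7, a SAGA subunit that anchors the deubiquitinase module, rose by 1.35 ± 0.22 log2 in ethanol (adjusted p = 0.000375) and by 0.97 ± 0.22 log2 in DP at 1436175_PM_at. Tada1, a SAGA core subunit, rose by 0.92 ± 0.10 log2 in ethanol and 0.90 ± 0.10 log2 in DP. Supt3, another SAGA core subunit, fell by 0.75 ± 0.13 log2 in DP.

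For TIP60, whose catalytic gene was not analysed here, 15 of 32 probe sets were higher and 1 lower in each treatment (50% called), with the highest median of the 4 complexes in ethanol, 0.38 log2. Of all probe sets, 29.6% were called in ethanol and 31.9% in DP. Ing3, a reader of histone H3 methylation, rose by 1.32 ± 0.12 log2 in ethanol at 1422805_PM_a_at, and Epc1, a scaffold subunit, by 1.12 ± 0.13 log2 in ethanol and 1.22 ± 0.13 log2 in DP. Actl6a, an actin-related subunit shared with BAF remodelling complexes, rose by 1.15 ± 0.12 log2 in DP at 1429883_PM_at, but differed by 0.00 log2 at its brighter probe set 1416569_PM_at.

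The listed subunits of the MOZ, MORF and HBO1 complexes moved both ways. In ethanol 7 of 18 probe sets were higher and 4 lower, and in DP 8 were higher and 4 lower. The shares called were 61.1% and 66.7%, against 29.6% and 31.9% of all probe sets. Jade2 rose by 1.38 ± 0.21 log2 in ethanol and 1.96 ± 0.21 log2 in DP, and Ing4 by 1.37 ± 0.11 log2 in ethanol and 1.21 ± 0.11 log2 in DP. All 4 lower probe sets were those of Jade1, a scaffold that directs HBO1 to histone H4, which fell by 1.17 ± 0.17 log2 in ethanol at 1452179_PM_at and by 1.38 ± 0.24 log2 in DP at 1426753_PM_at. For MSL and NSL, the complexes of Kat8, 9 of 22 probe sets were higher and 1 lower in each treatment (45.5% called, against the same 29.6% and 31.9%). Msl1, the scaffold of MSL, rose by 0.90 ± 0.14 log2 in ethanol and 1.01 ± 0.14 log2 in DP at 1434481_PM_at, while its other 3 probe sets differed by 0.07 to 0.20 log2 in DP and did not pass there.

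Other acetyltransferases that were not members included Ncoa2, the third p160 gene, and Clock, a circadian transcription factor. A probe set of Ncoa2 rose by 0.98 ± 0.14 log2 in ethanol (limma, adjusted p = 0.00014). Its other probe sets are not described here, so this value is not a reading of the whole gene. Clock probe set 1435775_PM_at rose by 1.59 ± 0.36 log2 in ethanol and 2.73 ± 0.36 log2 in DP. The brightest Clock probe set, 1418659_PM_at, gave 0.78 ± 0.38 log2 in ethanol (adjusted p = 0.149) and 1.27 ± 0.38 log2 in DP (adjusted p = 0.0207). Clock 1418660_PM_at passed in both treatments (1.35 and 1.75 log2). The dim 1439314_PM_at passed in DP (0.80 log2) but not in ethanol (0.47 log2, adjusted p = 0.0505). Over the list of other acetyltransferases, 10 of 34 probe sets were higher and 1 lower in ethanol, and 13 higher and 2 lower in DP, so 32.4% and 44.1% were called against 29.6% and 31.9% of all. Cyclic loess gave 6 higher and 3 lower in ethanol and moved the list's median to 0.10 log2, against 0.20 log2 as deposited. DP called none of the 182 list probe sets in dKO cells, of which 37 had an unadjusted p under 0.05, and 2 in WT cells, Atxn7 at 1442186_PM_at with 0.93 ± 0.12 log2 (adjusted p = 0.000331) and Jade3 with 0.93 ± 0.21 log2 (adjusted p = 0.0286). The difference of DP effects called none of the 182, of which 11 had an unadjusted p under 0.05.

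**Figure D4:**
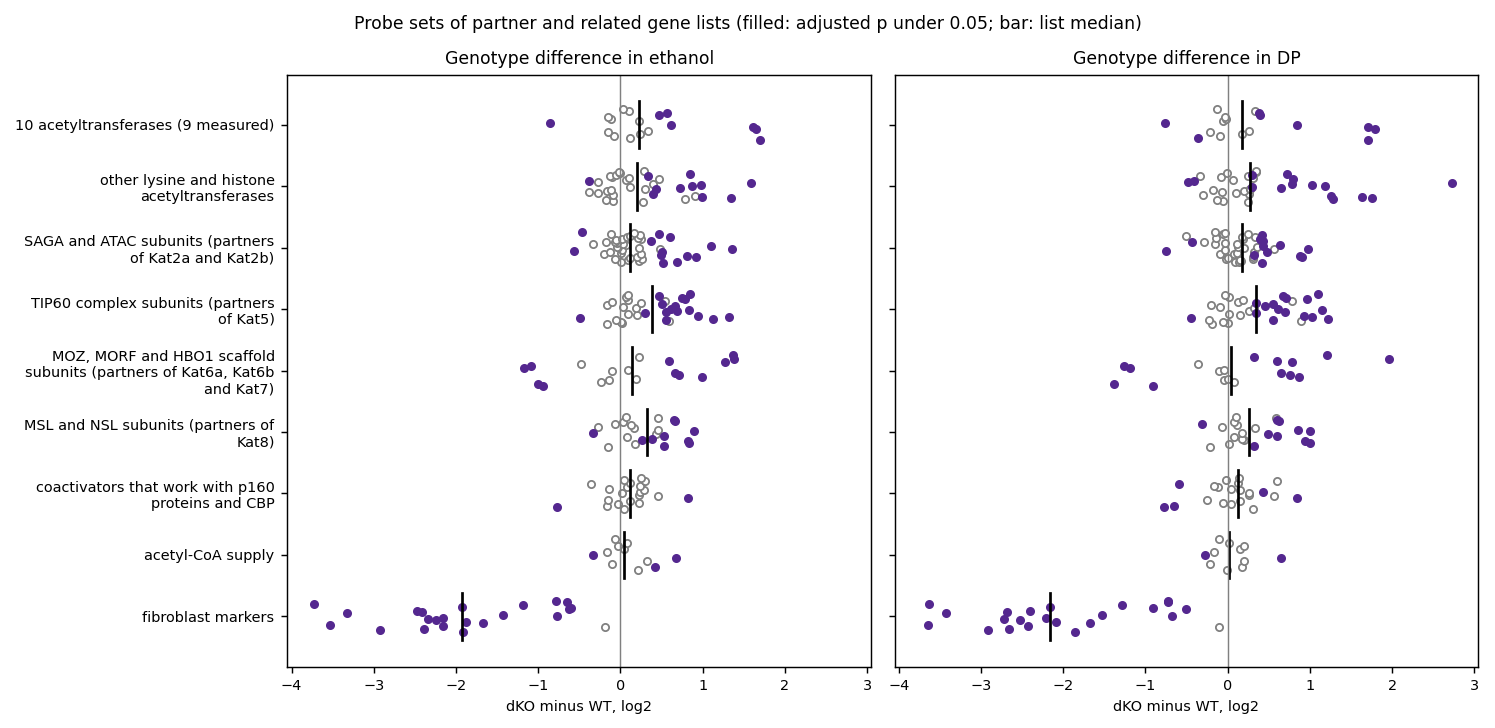
Difference dKO minus WT (log2) of the probe sets of each list, in ethanol and in DP; filled points passed an adjusted p of 0.05 and bars are list medians. The TIP60 list has its median at 0.38 log2 in ethanol, and the Jade1 probe sets are the lower filled points of the MOZ, MORF and HBO1 list.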

How the data were processed

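RNA (100 ng per array) from 12 MEF cultures was hybridized to Affymetrix 3' arrays. Per the submitters' processing notes, the authors used RMA and Affymetrix Expression Console 1.1, and the deposited values are probe set summaries on the log2 scale. RMA includes background correction and normalization between arrays; array medians lay between 3.87 and 3.98 log2. Scanner files were not used here. The number of arrays limits the precision.

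Of 45141 probe sets, 104 were controls, 15588 listed no symbol and 551 listed several; these were not tested. The other 28898 were named by the current symbol of their gene identifier (28689) or by the listed one (209). Members and lists were chosen with earlier results of these data known. limma 3.58.1 in R 4.3.3 (lmFit and eBayes) fitted 1 mean per group over all 12 arrays without a block, and p was adjusted by Benjamini-Hochberg over 28898 probe sets. A probe set whose group mean lay at or under the 95th percentile of 17 tag controls has only a bound. Every member probe set is given, and of each list up to 4 called probe sets of largest change were selected, from which the text names examples. Tables and figures used Python 3.11.15, pandas 2.3.3, numpy 2.4.6 and matplotlib 3.10.9. The fit was also tested on simulated data over 28898 probe sets. There 100 bright probe sets were changed by 1 log2 and 100 by 0.5 log2, with independent noise on every array. The ethanol fit called 79% of the former and 34% of the latter. In the real ethanol comparison 29.6% of probe sets were called, which makes the adjusted threshold less strict, so these shares do not apply to it. They do not cover dim probe sets either.

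The pairing of DP and ethanol cultures comes from the labels, where a numbered MEF line received both; as a check, the correlation r between the deviations of a line's 2 arrays from their group means was 0.04 (line 1), 0.30 (line 5) and 0.31 (line 6) in dKO, and 0.41 (line 3), 0.03 (line 4) and 0.33 (line 5) in WT, so it was near 0 in 2 of the 6 lines. The fit with the line as a block was an alternative, as were other normalizations, filters, probe set summaries, array weights and leaving out arrays.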

Additional observations from a re-analysis of the deposited data

How the results depend on the processing

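Under 24 alternatives, 12 of which leave out an array in turn, 1887 of 1958 member values stayed on their side of the threshold, 49 lost a call, 21 gained one, 1 reversed and 110 more changed sign where neither value passed. Kat2b 1434037_PM_s_at and both Ncoa1 probe sets passed in both treatments under every alternative run. Of 5 member genes called in ethanol, 3 (Crebbp, Kat2b and Ncoa1) were called with only the arrays compared, 4 with cyclic loess, which ended the calls of Kat6a and Ncoa3 and added Kat8, 2 (Kat2b and Ncoa1) with the beta-actin covariate, and 3 to 5 when an array was left out. In DP, 3 of 5 were called with the mean of probe sets per gene and 2 with the covariate. Crebbp was at -0.96 ± 0.36 log2 in ethanol and -0.87 ± 0.37 log2 in DP with the covariate (SE; adjusted p = 0.172 and 0.254). The reversed value is Ncoa3 1422737_PM_at in DP, 0.0162 log2 with the mean of probe sets; the cause is that mean itself, which takes in the other probe set. The DP call of Ncoa3 in dKO cells was 0 with the replicate block and also 0 with an intensity trend, cyclic loess, median centring, 1 probe set or the mean per gene, only the arrays compared, and the covariate, and 0 to 1 when an array was left out (0 without dKO ethanol line 1 or 6, or any dKO DP array). The replicate block changed no other member gene's call. The difference of DP effects called 1 member gene (Ncoa3) with array weights. Causes were not tested. Over all probe sets, array weights called 14009 in ethanol, 3892 for DP in dKO, 1650 for DP in WT and 479 for the difference, and the covariate 1385, 117 and 469 for ethanol, DP in dKO and DP in WT, with 1268 for genotype in DP; only the arrays compared called 189 for DP in dKO. Leaving out an array gave 217 to 427 for DP in dKO and 702 to 1363 for DP in WT. List counts under 5 of these alternatives were chosen after seeing the data. Probe sets at the level of the tag controls limit Kat6b and the dim Kat2b and Kat6a probe sets.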

Other observations

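Of coactivators that work with p160 proteins and CBP, 1 of 21 probe sets was higher and 1 lower in dKO in ethanol (9.52% called, against 29.6% of all probe sets), and 2 were higher and 3 lower in DP (23.8%, against 31.9%). Crtc2, a CREB coactivator, rose by 0.82 ± 0.14 log2 in ethanol and 0.84 ± 0.14 log2 in DP. Carm1, an arginine methyltransferase recruited by p160 proteins, fell by 0.77 ± 0.13 log2 in ethanol and 0.78 ± 0.13 log2 in DP. The probe sets of Creb1, the factor that binds CBP when phosphorylated, disagreed in DP: it fell by 0.65 ± 0.10 log2 at the dim 1421582_PM_a_at, whereas the brighter 1452901_PM_at averaged 8.32 log2 in dKO and 7.72 log2 in WT and 1428755_PM_at 7.76 log2 in dKO and 7.21 log2 in WT, and neither passed (adjusted p = 0.236 and 0.322). Among 11 probe sets for acetyl-CoA supply, 2 were higher and 1 lower in ethanol (27.3% called, against 29.6% of all), and 1 was higher and 1 lower in DP (18.2%, against 31.9%). Slc33a1, an acetyl-CoA transporter of the endoplasmic reticulum, rose by 0.68 ± 0.14 log2 in ethanol, and Acly, which makes cytosolic acetyl-CoA from citrate, fell by 0.33 ± 0.09 log2 at 1425326_PM_at but differed by -0.06 log2 at its brighter probe set, which did not pass.

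Markers of other cell types varied in level. Of 5 endothelial markers, 4 lay at or under the tag control level in dKO and 4 in WT in ethanol. All 5 skeletal muscle markers did in dKO and 1 in WT, so their dKO sum given below is at the control level. Among 5 epithelial markers 2 did in dKO and 1 in WT, and 1 erythroid and 1 neural marker did in each genotype. Of 6 macrophage markers, 2 did in dKO and 1 in WT, and their summed linear level was 226 to 300 in dKO and 210 to 641 in WT in ethanol. Lyz2, a lysozyme of macrophages, averaged 4.65 log2 in dKO and 8.06 log2 in WT in ethanol, and Cd68, a lysosomal protein of macrophages, 6.95 log2 in dKO and 5.42 log2 in WT. Tubb3, a neuronal tubulin, averaged 4.25 log2 in dKO and 7.75 log2 in WT, the one neural probe set of 7 that was called in ethanol. The summed linear level of 4 neural markers was 56.3 to 82.2 in dKO and 233 to 289 in WT, that of 5 skeletal muscle markers 46.5 to 53.1 in dKO and 71.6 to 77.1 in WT, that of 5 epithelial markers 57.8 to 65.9 in dKO and 68.9 to 99.0 in WT, and that of 3 erythroid markers 36.2 to 52.3 in dKO and 41.8 to 48.0 in WT, all in ethanol. The summed linear level of 14 fibroblast markers was 15160 to 19316 in dKO and 43323 to 44405 in WT in ethanol, and 15085 to 18678 in dKO and 44430 to 45714 in WT in DP. The part of these levels in the member results was not tested.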
